A study of Drosophila melanogaster with 384 samples.

Results

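Genome regions that lay far from every gene start were examined for open chromatin in sorted cells of the Drosophila melanogaster eye-antennal disc. This disc is the larval epithelium that forms the eye, the antenna and the head capsule. The regions were delimited by sequence conservation and are not called peaks, so a listed region need not be open. A far region was a row of the count table on X, 2L, 2R, 3L or 3R, outside the pericentromeric parts of these arms, whose nearest edge was more than 20 kb from the transcription start site (TSS) of every annotated gene other than transposable elements. The rule used position and no measured value, and it found 2657 of 68775 regions in the table, or of 64679 regions on these arms outside the pericentromeric parts. Of the far regions, 32.8% lay on X, 24.3% on 3R, 17.4% on 3L, 14.6% on 2L and 10.95% on 2R, and together they covered 3.17 Mb. Chromatin was profiled by single-cell ATAC-seq on the Fluidigm C1, in which the Tn5 transposase inserts adapters into accessible DNA of cells captured in separate chambers. The cells, called sens-GFP+, were sorted for GFP from 200 dissociated discs dissected at the last larval stage, when larvae wander. The animals carried the F2-B(sens)-GFP reporter, kept over CyO in a w background, which is driven by an intronic enhancer of senseless (sens) that Atonal targets. The reporter therefore marks cells by the activity of that enhancer and not by the protein. The table held 72 cells of a single sort. Cells of 1 sort are not replicates, so every value describes this sample and none carries a p-value.

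Enhancers are stretches of DNA that bind transcription factors and raise the activity of a promoter, often from many kilobases away. In flies, genes that pattern tissues are often long, with enhancers spread over large introns or over gene-poor stretches beside them. The GAGA factor (Trl) binds GA repeats and keeps nucleosomes away, Grainyhead opens chromatin in epithelia, and Atonal is the proneural E-box factor that founds the R8 photoreceptor, the cell in which sens acts.

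The sequences below are 200-base windows, on the plus strand of the release 6 (dm6) genome from NCBI RefSeq, of far regions that ranked among the 10 with most counts or most counts per kb. They were picked to show GA repeats, E-boxes and 1 window with no match, so their mix of matches is not that of all named regions. GA repeats were more frequent in strong far regions than in the others (below in the motif comparison), but only 26 of 76 strong regions held GAGAGAG. In each region the window was the first with most matches to the searched cores on either strand, and matches are in capitals.
fz intron, chr3L:14299366-14299565: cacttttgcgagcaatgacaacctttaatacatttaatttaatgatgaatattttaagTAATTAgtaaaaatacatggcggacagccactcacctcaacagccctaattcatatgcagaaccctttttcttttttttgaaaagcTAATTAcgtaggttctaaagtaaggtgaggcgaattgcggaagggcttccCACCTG
hth intron, chr3R:10580514-10580713: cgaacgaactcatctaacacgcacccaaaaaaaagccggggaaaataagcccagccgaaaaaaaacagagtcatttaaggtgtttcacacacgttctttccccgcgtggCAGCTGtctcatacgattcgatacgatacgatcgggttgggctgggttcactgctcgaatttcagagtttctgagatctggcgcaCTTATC
tai intron, chr2L:9205671-9205870: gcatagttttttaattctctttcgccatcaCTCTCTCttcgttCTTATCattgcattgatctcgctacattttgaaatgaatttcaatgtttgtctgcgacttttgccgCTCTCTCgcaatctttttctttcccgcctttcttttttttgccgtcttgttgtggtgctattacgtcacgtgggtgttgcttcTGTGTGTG
3L cluster, left, chr3L:10737029-10737228: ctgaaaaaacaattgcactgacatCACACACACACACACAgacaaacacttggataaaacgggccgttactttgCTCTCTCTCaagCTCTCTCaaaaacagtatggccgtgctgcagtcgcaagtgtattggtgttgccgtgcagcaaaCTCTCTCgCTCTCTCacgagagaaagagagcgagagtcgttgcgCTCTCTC
3L cluster, middle, chr3L:10737439-10737638: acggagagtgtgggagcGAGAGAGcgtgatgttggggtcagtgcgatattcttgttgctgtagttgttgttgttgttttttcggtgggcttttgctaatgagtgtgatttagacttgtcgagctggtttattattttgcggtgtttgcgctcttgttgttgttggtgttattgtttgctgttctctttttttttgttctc
3L cluster, right, chr3L:10739334-10739533: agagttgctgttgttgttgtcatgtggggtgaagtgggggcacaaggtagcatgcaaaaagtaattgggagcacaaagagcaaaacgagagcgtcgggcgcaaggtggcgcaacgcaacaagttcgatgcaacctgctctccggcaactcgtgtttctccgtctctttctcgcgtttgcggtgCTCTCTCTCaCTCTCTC
beside B-H2, chrX:17335246-17335445: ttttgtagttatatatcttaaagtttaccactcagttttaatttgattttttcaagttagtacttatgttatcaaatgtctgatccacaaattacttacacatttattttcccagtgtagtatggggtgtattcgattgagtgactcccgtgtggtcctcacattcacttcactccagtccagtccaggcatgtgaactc

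In the windows, capitals mark the GAGA factor core GAGAGAG, the E-box CAGGTG that Atonal can bind, a further E-box CAGCTG, the homeodomain core TAATTA, the GATA factor core GATAAG and the repeat CACACACA. Each is marked also as its reverse complement. The 3 windows of the 3L cluster held 5, 1 and 2 separate GAGAGAG matches, and the tai window held 2. The windows of fz and hth carried E-box matches, 1 CAGGTG in fz and 1 CAGCTG in hth. The whole region beside B-H2 held no match to any core. A match is a string of letters and not a binding site, and its absence says nothing of a factor.

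Far regions carried fewer counts per length than regions nearer to a TSS, but the typical far region differed little. Far regions held 5793 counts (95% Poisson interval 5645 to 5944), which was 2.93% of all counts of the table (2.86 to 3.01%, Wilson), while these regions made up 3.99% of the bases listed. This came to 1.83 counts per kb (1.78 to 1.88). Nearer distal regions, which lay more than 500 bp and at most 20 kb from a TSS, had 2.31 counts per kb, so the ratio of far to nearer distal regions was 0.791 (0.770 to 0.812). Promoter regions had 4.68 counts per kb, 2.56 times the far value (2.49 to 2.63). The median far region had 1.37 counts per kb and the median nearer distal region 1.46. These intervals, and those that follow, are at 95% and reflect the number of counts alone. Duplicates were removed with Picard, without molecular identifiers. Whether reads or fragments were counted is not given in the sources used here, so more than 1 count may still stem from 1 molecule.

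Most far regions were sparse and a small number were strong. At least 1 count was present in 79.8% of far regions, beside 81.5% of all regions on these arms outside the pericentromeric parts, and 537 far regions (20.2%, Wilson interval 18.7 to 21.8%) had 0 counts. A count of 0 allows up to 3 counts each, a one-sided limit unlike the intervals given. Nearer distal regions had no count in 19.9% of cases, within that interval. At least 10 counts, the size used here to call a region strong, were reached by 76 far regions (2.86%), beside 6.37% of all regions and 3.79% of nearer distal regions. At least 20 counts were reached by 22 far regions. The 76 strong regions covered 5.67% of the far bases and held 22.01% of the far counts. Of them 51 were intronic, 21 intergenic and 4 exonic, which was 2.99% of intronic, 3.84% of intergenic and 0.990% of exonic far regions.

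**Figure D1:**
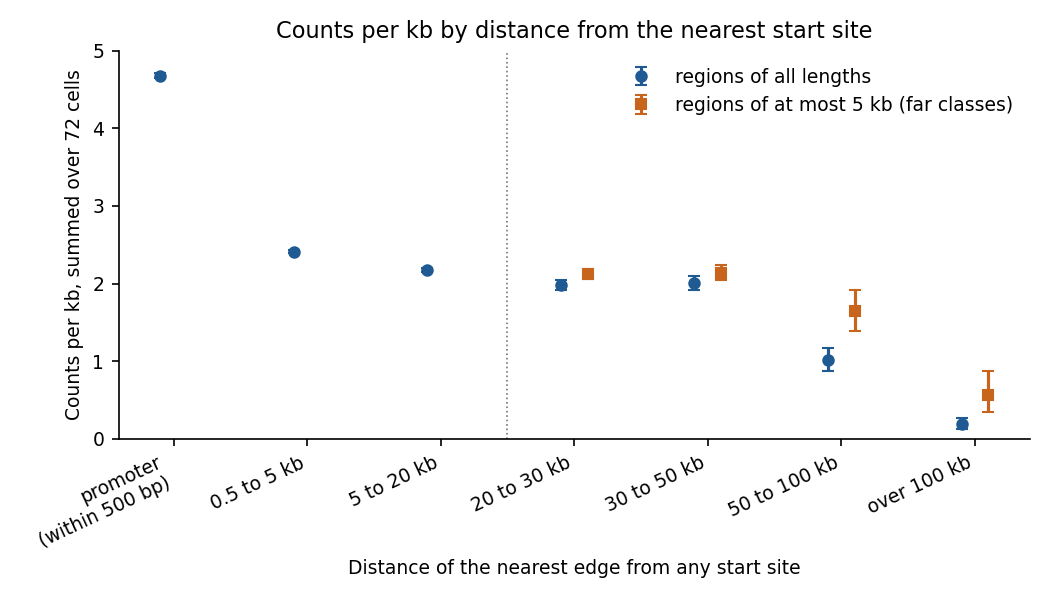
Counts per kb summed over 72 cells (y axis) by the distance of a region's nearest edge from any TSS (x axis, 7 classes), with 95% Poisson intervals; circles are regions of all lengths, squares far regions of at most 5 kb, and the dotted line marks 20 kb. Density was 4.68 at promoters, near 2.0 between 20 and 50 kb and 0.190 beyond 100 kb, where the 26 regions came from 2 stretches.

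Within the far regions, summed density stayed level up to 50 kb and was lower beyond, while the median region was lower only beyond 100 kb. Regions 20 to 30 kb from a TSS had 1.99 counts per kb (1.92 to 2.05) and those 30 to 50 kb away had 2.002 (1.91 to 2.09). The 91 regions between 50 and 100 kb had 1.01 counts per kb (0.868 to 1.17), and the 26 regions beyond 100 kb had 0.190 (0.132 to 0.264). Length differed with distance: the median length was 918 bp at 20 to 30 kb and 5963 bp beyond 100 kb. When regions longer than 5 kb were left out, the values were 2.12, 2.14, 1.64 and 0.565 counts per kb in the same order. With all lengths kept, the median region had 1.39, 1.35, 1.56 and 0.132 counts per kb in that order.

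The regions beyond 100 kb lay in the 2 longest stretches without a TSS. The first, of 510 kb on X, runs from the start of flam, a long non-coding locus that yields piRNAs against transposable elements, to CG40813, a gene with no given name. Its 27 far regions held 51 counts, 0.208 counts per kb (0.155 to 0.273), and 8 of them had none. The region farthest from any TSS, at 228.9 kb, lay there and had 2 counts in 2 cells over 14.4 kb. The other stretch, of 256.3 kb on 2R, lies between Pld, which encodes phospholipase D, and a non-coding RNA gene, and its 15 far regions had 0.456 counts per kb (0.351 to 0.583). Repeats were masked in 43.95% and 44.97% of these bases, against 24.3% of all far bases. Both stretches together made up 12.2% of the far bases and 1.99% of the far counts, and without them the ratio of far to nearer distal regions was 0.883 (0.860 to 0.907). Their far regions lay within 1 Mb of the pericentromeric limits chosen here, 22 Mb on X and 6 Mb on 2R. Limits moved by 1 Mb left out both stretches and some other regions. The ratio of intronic to intergenic far regions was then 1.10 in place of 1.50. The part that repeats and the length of regions had in these values was not tested.

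**Figure D2:**
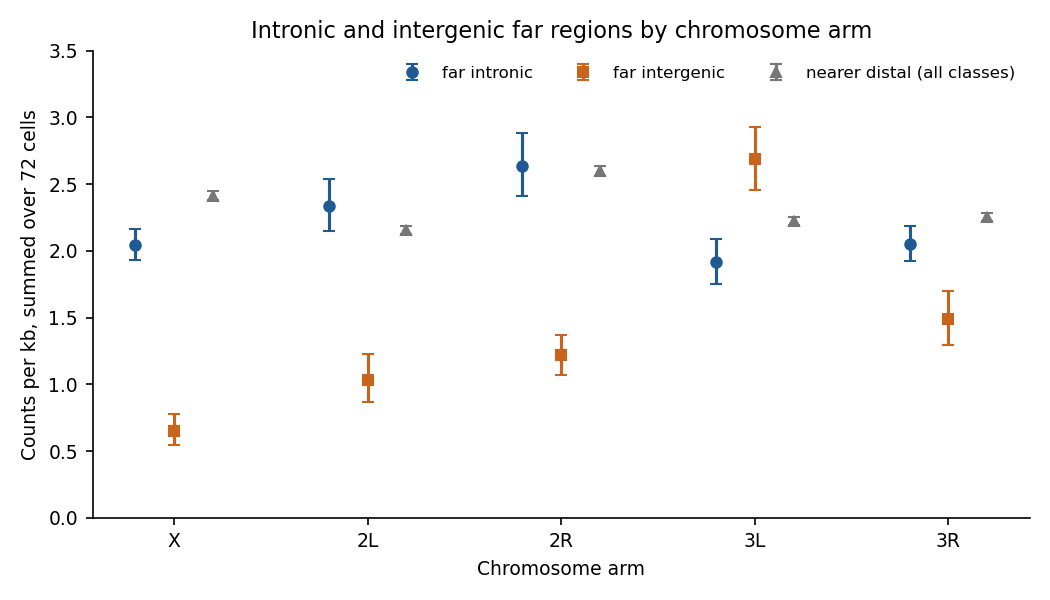
Counts per kb summed over 72 cells (y axis) on each chromosome arm (x axis) for intronic far regions, intergenic far regions and all nearer distal regions, with 95% Poisson intervals. Intronic far regions were denser than intergenic ones on X, 2L, 2R and 3R, and less dense on 3L (1.91 against 2.69).

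Far regions inside introns were denser than those between genes, on 4 of 5 arms. The 1706 intronic far regions had 3786 counts and 2.131 counts per kb (2.064 to 2.2002), and the 547 intergenic ones had 1246 counts and 1.42 counts per kb (1.35 to 1.50), a ratio of 1.50 (1.40 to 1.60). The 404 far regions with any exon base had 1.48 counts per kb. Among nearer distal regions the same ratio of intronic to intergenic was 1.28 (1.26 to 1.30). Much of the far difference came with long intergenic regions: at a length of at most 5 kb the ratio was 1.12 (1.05 to 1.20), and without the flam and Pld stretches it was 1.15 (1.08 to 1.23). The share of regions with no count was 20.1% in introns and 20.7% between genes.

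On X the intronic value was 3.13 times the intergenic one (2.61 to 3.78), on 2L 2.26 times, on 2R 2.17 times and on 3R 1.38 times (1.19 to 1.61). With regions of at most 5 kb the ratio was 1.56 (1.26 to 1.93) on 2L and 1.28 (1.08 to 1.51) on 2R. On 3L the order was turned, at 0.712 (0.628 to 0.808). The 3L value rested in part on the stretch between NijA and CG43245, described below, and without it the ratio there was 0.908 (0.789 to 1.04), an interval that includes 1. At a length of at most 5 kb the ratio on X was 1.68 (1.39 to 2.05), and on 3L it stayed at 0.712 because no far region of the compared classes on that arm was longer.

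**Figure D3:**
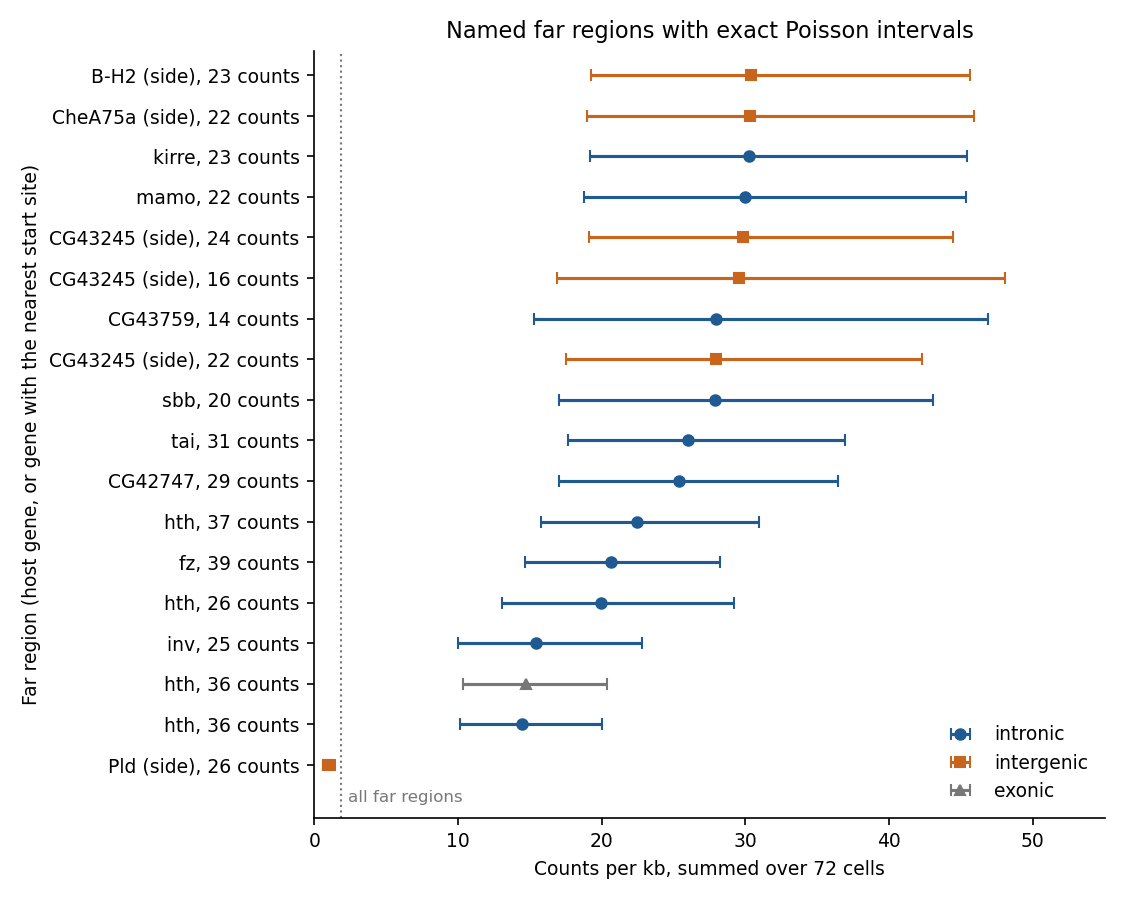
Counts per kb summed over 72 cells (x axis) with 95% Poisson intervals for the far regions with most counts per kb or most counts (y axis: host gene, or for intergenic regions the gene with the nearest TSS, and the counts). Of 18 regions, 17 lay between 14.5 and 30.4 counts per kb, above the value of all far regions (dotted line, 1.83), and the long region beside Pld lay below it at 0.968.

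The far region with most counts lay in an intron of fz, the Frizzled receptor of planar cell polarity, 24.9 kb from the TSS (chr3L:14299283-14301170). It had 39 counts (27.7 to 53.3) in 18 of 72 cells (25.0%, Wilson interval 16.4 to 36.1%), and 20.7 counts per kb. Most cells had none: 54 cells had 0, 10 had 1, 3 had 2 and 5 had 3 or more, up to 6. Counted at most once per cell it came to 9.53 per kb. A smaller fz region, chosen here because it touches the block of the first, added 11 counts.

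Introns of hth held 3 of the 10 regions with most counts, and another region among them overlapped an hth exon by 1 base. A further hth intron region tied at 24 counts for the last of the 10 places, which went to the denser region on 3L. The gene encodes Homothorax, a homeodomain protein that acts with Extradenticle in eye progenitors, antenna and head capsule. Its strongest region (chr3R:10579703-10581352) lay 32.9 kb from any TSS and had 37 counts in 22 cells, with 50 cells at 0, 12 at 1, 7 at 2 and 3 at 3 or more. A neighbouring region (chr3R:10577217-10579702) had 36 counts in 26 cells, the widest spread over cells of any far region. The region with the exon base (chr3R:10585928-10588370) had 36 counts in 24 cells, and a further one (chr3R:10563160-10564462), 49.8 kb from any TSS, had 26 counts in 17 cells. At most once per cell, the densities of the strongest region and of the 1 at 49.8 kb were 13.3 and 13.05 per kb, in place of 22.4 and 19.95. Taking the 6 strong hth regions together, 54 of 72 cells had a count in at least 1 and 31 in at least 2.

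Among intronic regions ranked by density, an intron of kirre, an immunoglobulin adhesion protein of myoblast fusion and eye patterning, held a region with 30.3 counts per kb (19.2 to 45.4) from 23 counts in 15 cells. The mamo region, in a zinc finger gene, had 29.97 counts per kb from 22 counts in 12 cells. In mamo 1 cell gave 6 of the counts, and at most once per cell the density was 16.3 per kb, while in kirre it was 19.7 and in sbb, described next, 18.1. Regions in CG43759 and in sbb, which encodes the corepressor Scribbler, had 27.9 counts per kb each, from 14 and 20 counts. The intervals of the densest regions named here overlapped, so their order is not resolved by these counts.

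An intron of tai, the ecdysone receptor coactivator Taiman (chr2L:9204801-9205992), had 31 counts in 17 cells and 26.01 counts per kb (17.7 to 36.9), or 14.3 when counted at most once per cell. A region in CG42747 (chr3L:6439530-6440671), 38.9 kb from any TSS, had 29 counts in 17 cells and 25.4 counts per kb, or 14.9 at most once per cell. The inv region had 25 counts in 13 cells and 15.5 counts per kb, or 8.03 at most once per cell, and inv encodes Invected, the homeodomain paralog of Engrailed. It lay between the start sites of both genes, 23.3 kb from that of inv and 27.3 kb from that of en. By contrast, 26 counts beside Pld were spread over 26.9 kb, so that region entered by its total and not by its density.

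Of the 5 densest intergenic regions 3 lay in a cluster on 3L between NijA, which encodes a Ninjurin, and CG43245, and these 3 were more than 30 kb from either TSS. They were chr3L:10736651-10737438 with 22 counts in 18 cells, chr3L:10737439-10737979 with 16 counts in 14 cells and chr3L:10738870-10739673 with 24 counts in 19 cells. Their densities were 27.9, 29.6 and 29.9 counts per kb. They belong to a row of touching regions (chr3L:10736651-10743869) with 6 strong members, the most of any such row. A count in any of these 6 was seen in 45 of 72 cells, and 23 cells had counts in at least 2 of the 6 regions. The stretch held 32 far regions in all, with 6.156 counts per kb (5.26 to 7.17), and 4 of them had no count.

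Of the other intergenic regions, that beside B-H2 (chrX:17335246-17336002) had 23 counts in 16 cells and 30.4 counts per kb (19.3 to 45.6). The gene encodes a BarH homeodomain protein of the R1 and R6 photoreceptors, and its TSS was 20.7 kb away. A region between CheA75a, a chemosensory protein gene, and CG5103 (chr3L:18272471-18273196) had 22 counts in 15 cells and 30.3 counts per kb. It lay 20.4 kb from the former and 21.1 kb from the latter. In both, no cell gave more than 3 counts.

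Some strong far regions lay in the same row of touching regions, where weaker regions can lie between the strong ones. Of all far regions, 83.9% shared an edge with another listed region, and the 76 strong regions fell into 50 rows of touching regions, of which 16 held at least 2. Rows with 3 strong regions lay, among others, in tai, sbb, CG42238, kirre and jing. A fragment that crosses an edge could be counted in both neighbours, and whether it was is not given in the sources used here, so neighbours are not independent.

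The 10 host genes with most counts in intronic far regions held 29.9% of these counts on 20.8% of the length. The leading gene was hth, whose 27 intronic far regions had 5.62 counts per kb (4.86 to 6.46) and a count in 58 of 72 cells, with a median of 2 and a highest value of 14 counts per cell. Second was kirre, whose 42 regions had 5.23 counts per kb (4.49 to 6.05) and a count in 48 cells. Next came CG43759 with 2.88 counts per kb (2.41 to 3.41) in 58 regions. The others described here were bru3 (100 counts, a Bruno-family RNA-binding protein), luna (94 counts, a Krüppel-like factor), jing (88 counts, a zinc finger factor), CG42238 (86 counts), kek5 (84 counts, a leucine-rich repeat membrane protein) and mamo (83 counts). By number of far regions the leading genes were bru3 (61), kek5 (59), CG43759 (58), Rbp6 (57, a Musashi-family RNA-binding protein) and pum (43, the translational repressor Pumilio). Of these 5 genes CG43759 alone held a strong region.

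In kirre 1 cell gave 31 counts, over 12 regions, and the next cell gave 16. Without that cell the gene had 4.32 counts per kb in place of 5.23. That cell had 3574 counts in all, and 16.9% of its counts on the main arms fell on X, close to the median over cells of 17.96%.

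**Figure D4:**
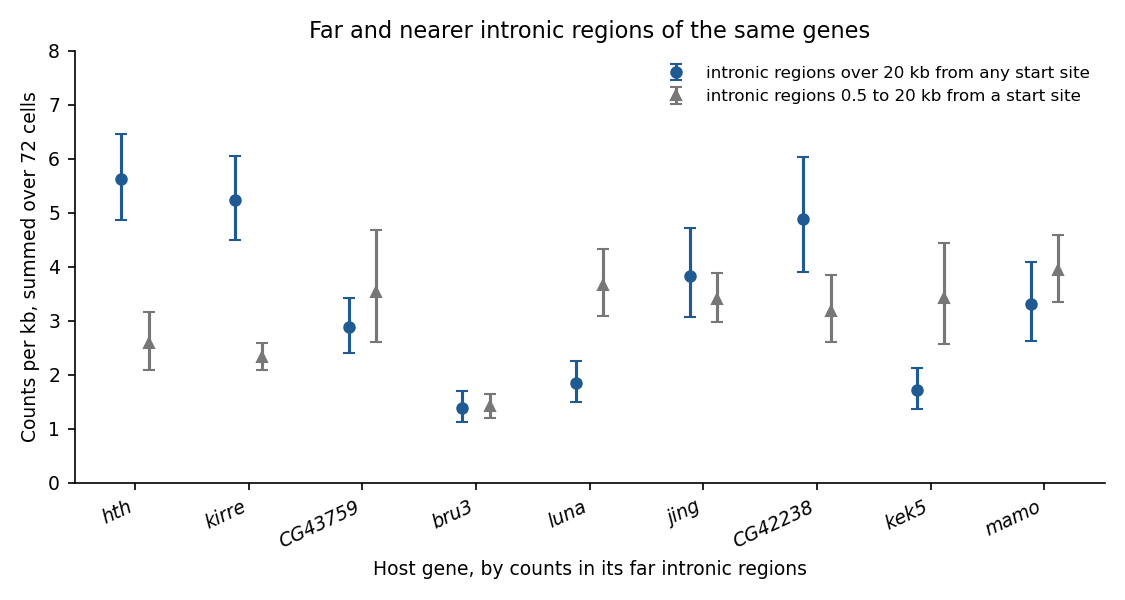
Counts per kb summed over 72 cells (y axis) with 95% Poisson intervals in intronic regions more than 20 kb from any TSS (circles) and 0.5 to 20 kb from a TSS (triangles) of 9 of the 10 host genes with most far intronic counts (x axis). In hth, kirre and CG42238 the far value was above the nearer one with intervals of the ratio above 1, and in luna and kek5 it was below.

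Set against nearer intronic regions of the same genes, far regions split in both directions. Over all host genes the far density was 0.811 times the nearer density (0.782 to 0.841), 2.13 against 2.63 counts per kb. In hth it was 5.62 against 2.59, a ratio of 2.17 (1.69 to 2.81), and in kirre the ratio was 2.25 (1.87 to 2.70). In fz the ratio was 2.92 (2.16 to 3.92) and in CG42747 3.61 (2.34 to 5.72), both genes with a named region. These genes were picked for high far counts, which favours ratios above 1, so the ratios are a description. The opposite held in luna, at 0.503 (0.383 to 0.657), and kek5, at 0.502 (0.353 to 0.719). The nearer side of CG42747 was 10 regions that covered 40.4 kb, long ones on average, with 30 counts and 0.742 counts per kb. Nearer distal regions of 1 to 2 kb had 2.22 counts per kb, and those of 2 to 5 kb had 1.33. The part that length had in the CG42747 ratio was not tested. Among 57 genes with at least 20 counts on each side, the interval lay above 1 in 12 and below 1 in 17, and the median ratio was 0.839.

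Intergenic far regions had 95 nearest genes, led by CG43245, a gene with no given name, whose 17 regions had 9.05 counts per kb and a count in 48 cells. Tollo, a Toll-family receptor gene, followed with 57 counts in 12 regions, of which 1 region held 23. Next were B-H2 with 47 counts in 10 regions, the non-coding RNA gene lncRNA:CR45229 with 46 counts in 8 regions, and Pld with 44 counts in 4 regions. The nearest gene is a matter of position and need not be the target.

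By gene list, the summed density of far regions was higher at transcription factors than at channels and receptors. Of 64 matched genes for retina and neuron transcription factors, 12 had far regions, and their regions had 2.90 counts per kb (2.67 to 3.15), with 13 strong, but the median region had 1.48. Of these counts 44.7% came from hth, exonic regions included, and without hth the value was 2.14 (1.91 to 2.39). The other genes of this list with a strong region were luna (2), jing (3) and B-H2 (2). The list for antenna, peripodial membrane and head capsule had 42 regions at 4 of 21 genes with 3.06 counts per kb (2.56 to 3.63) and a median region of 2.28, with strong regions in inv and in bi, the T-box gene bifid, which had 66 counts in 26 regions. All far regions together had 1.83 counts per kb, a median region of 1.37 and 2.86% strong.

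Cell adhesion and axon guidance genes held the most far regions of any list, 458 at 33 genes, with 1.86 counts per kb (1.74 to 1.996), a median region of 1.35 and 7 strong regions. The strong ones lay in kirre (5), in Fas2, the Fasciclin 2 adhesion protein, and beside side-VIII, a Sidestep-family gene. Channels and neurotransmitter receptors had far regions at 13 of 63 genes, with 1.34 counts per kb (1.14 to 1.56), a median of 1.13 and 0 strong regions. The most counts in a channel gene were 33 in Ca-alpha1T and 30 in para, the voltage-gated sodium channel. Glia, hemocyte and adepithelial genes had 2 far regions, both assigned to twi, with 1 count.

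Cores of known factors were compared between the 76 strong far regions and the 2581 others, a comparison that the choice by position did not use. GAGAGAG was present in 34.2% of strong regions (26 of 76, Wilson interval 24.5 to 45.4%) and in 13.02% of the others, a ratio of 2.63 (1.89 to 3.65), and in 13.6% of all listed regions of the arms. The 26 regions lay in 20 of the 50 rows of touching regions. Per kb, GAGAGAG matches were 1.96 times as frequent (1.47 to 2.58), and among regions of 500 to 2000 bp the shares were 26.98% and 11.6%. The Grainyhead core, searched as ACCGGTT and as its reverse complement AACCGGT, was present in 9.21% of strong regions (7 of 76) and 2.79% of the others, a ratio of 3.30 (1.57 to 6.93), and in 3.44% of all listed regions. Its ratio per kb was 1.94 (0.857 to 3.89), an interval that includes 1. Among regions of 500 to 2000 bp the Grainyhead core was present in only 4 of 63 strong regions. The ratio of shares there was 2.72 (1.02 to 7.26).

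The AP-1 core TGACTCA was present in 17.1% of strong regions and 7.17% of the others, but with length held at 500 to 2000 bp the ratio was 1.80 (0.880 to 3.68). The Atonal-type core CAGGTG was present in 34.2% of strong regions and 27.2% of the others, a ratio of 1.26 (0.915 to 1.73), and in 25.0% of all listed regions. Per kb its ratio was 0.966 (0.726 to 1.26). For the E-box CAGCTG and for the Sine oculis core TGATAC and the GATA factor and homeodomain cores the interval of the ratio of shares included 1 as well, and per kb the homeodomain core was less frequent in strong regions, at 0.733 times (0.596 to 0.892). CACACACA was present in 38.2% of strong and 32.5% of other far regions, a ratio of 1.17 (0.876 to 1.57), and in 24.4% of all listed regions. Per kb the direction turned, to 0.570 (0.429 to 0.745), and among regions of 500 to 2000 bp the ratio of shares was 0.941. Cores were searched on both strands and independently of each other, so that matches of different cores may overlap, while overlapping matches of 1 core were counted once. The part that repeats had in the matches was not tested.

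**Figure D5:**
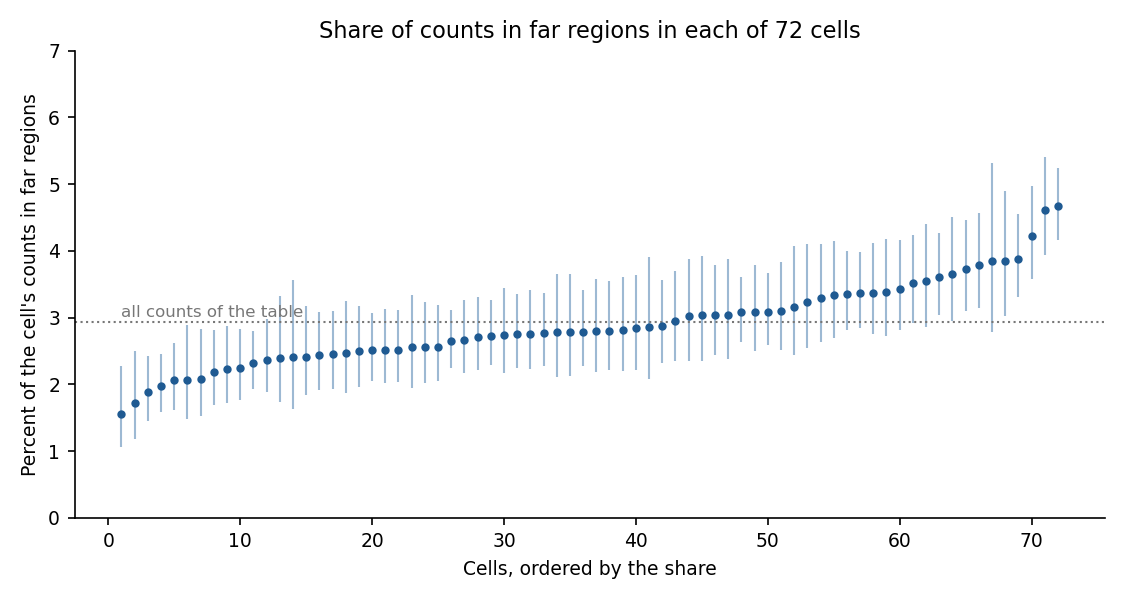
Percent of each cell's counts that fell in far regions (y axis) for 72 cells ordered by that share (x axis), with 95% Wilson intervals; the dotted line is the share over all counts, 2.93%. The share ran from 1.56 to 4.67%.

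Every cell had counts in far regions. The lowest number per cell was 24 and the median 75.5, and the share of a cell's counts ran from 1.56 to 4.67% with a median of 2.80%. The variance of this share over cells was 4.09 times the binomial variance, so cells differed by more than the pooled interval covers. Of all entries of far regions 2.53% were above 0, of which 85.7% were equal to 1, and the largest was 6. The share of far counts that lay on X ran from 5.62 to 65.1% with a median of 25.8%. Far counts ran from 1.59 to 34.3% on 2L, 3.08 to 30.8% on 2R, 0 to 45.7% on 3L and 5.36 to 43.9% on 3R. The share of X among all counts on the main arms also ran widely, from 5.82 to 37.7%. It was 32.7% in the cell with the highest far share on X. Other arms spread widely too, at 9.33 to 31.7% on 2L, 9.02 to 36.6% on 2R, 10.4 to 38.7% on 3L and 12.7 to 39.2% on 3R. The part that these spreads had in the values of single regions, on X or elsewhere, was not tested.

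The choice of 20 kb had no natural break. Just inside, at 20005 bp, lay a region beside lncRNA:CR45229 with 16 counts, and the next had 0, 9, 1 and 1 counts. Just outside, from 19993 bp down, 5 regions had 0, 5, 4, 3 and 3 counts. As a check of the label, over 6 R8 and furrow markers the median was 5.05 counts per kb. They ran from 1.79 in boss and 2.24 in ato to 10.9 in sens, the locus of the enhancer that drove the sort. Both boss and ato lay below the medians of the antenna, adepithelial and hemocyte markers. In addition boss lay below the glial median, and sca, at 3.07, below the hemocyte median. The reporter also carries that enhancer, and whether it added counts at sens was not tested. The photoreceptor markers had a median of 6.14, antenna markers 2.62, glial markers 2.09, hemocyte markers 3.14 and adepithelial markers 2.37 counts per kb, and no marker was at 0. The cells had 908 to 5892 counts each (median 2694.5), and 2 had fewer than 1000.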

How the data were processed

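Whole-number counts per region and cell were deposited by the authors without normalisation. The regions are cisTarget regions, non-coding genome segments delimited by sequence conservation. Per the study's methods and processing notes, reads were mapped with Bowtie2 (2.2.5) to dm6, duplicates were removed with Picard, and SAMtools (1.2) and FastQC (0.1) were used. For bulk samples the methods name featureCounts and fragments. For the cells the counter, whether reads or fragments were counted, any Tn5 shift and the rule for listing regions are not given in the sources used here. Of 384 labelled cells the authors kept 72, chosen by hand from aggregation plots, and these were in the table, and 0 columns were left unused.

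Counts were summed over cells (Python 3.11.15, pandas 2.3.3, numpy 2.4.6, scipy 1.17.1, matplotlib 3.10.9). TSS, exons and gene bodies came from Ensembl release 115, and sequence from the NCBI RefSeq genome of the same release 6 assembly. A region with any exon base was exonic, otherwise with any gene-body base intronic, otherwise intergenic. Kept were X below 22 Mb, 2L below 22 Mb, 2R above 6 Mb, 3L below 23 Mb and 3R above 5 Mb. Shares have Wilson, counts exact Poisson and ratios of counts per kb exact binomial intervals, at 95%. The functions were tested on simulated data. Regions were named by counts per kb (10, at least 200 bp), counts (10), intergenic counts per kb (5) and greatest distance, and genes by summed far counts (10 hosts, 5 nearest), number of far regions (5) and listed genes with a strong region. Other genes and regions were named after their values were seen. A gene that the rule would name is withheld and is not reported here, though it stays in the summed values. Of 286 list entries 274 matched an annotated gene on X, 2L, 2R, 3L or 3R. Genes on other chromosomes were not searched, so ey, toy, sv and onecut of the retina list, among others, had no match. The rule, members and lists were chosen with earlier results of these data known. Alternatives in distance, TSS set, edge or midpoint, pericentromeric limit, length, low cells, counting once per cell, GC bins and class rule are given in the closing section.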

Additional observations from a re-analysis of the deposited data

Results flagged for a closer look

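Outside the regions compared, the pericentromeric parts held 1121 regions more than 20 kb from any TSS. They had 3050 counts (95% Poisson interval 2943 to 3160), or 0.419 counts per kb over 7.28 Mb. Of these 1121 regions 47 had at least 10 counts, beside 76 of 2657 far regions and 4119 of 64679 regions outside the pericentromeric parts. The median length of the pericentromeric regions was 3819 bp. They were listed here because they carried counts in data that entered no comparison. No control sample was used for comparison.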

How the results depend on the processing

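The settings left the far density below the nearer distal density and the intronic density above the intergenic one in every alternative run, while the sizes moved. With far meaning more than 10 kb from a TSS, the density was 2.06 counts per kb, the share of counts 10.7%, the ratio of far to nearer distal regions 0.879 and the ratio of intronic to intergenic 1.30. With more than 50 kb these were 0.595, 0.110%, 0.259 and 6.07, and 24.8% of regions had no count. The value of 6.07 rested on few intergenic regions, 8 with 21 counts at 50 to 100 kb and 18 with 18 counts beyond 100 kb. With the TSS of protein-coding genes only, density, share of counts and the ratios were 1.98, 5.56%, 0.834 and 1.31. With the distance from the midpoint the share of counts was 3.14%. With the pericentromeric limits moved 1 Mb they were 2.03, 2.77%, 0.873 and 1.10. Counting each region at most once per cell gave 1.53 counts per kb and 1.96% of far regions (52) with at least 10 counts. With protein-coding gene bodies only, the ratio of intronic to intergenic was 1.68. Among alternatives chosen after seeing the data, regions of at most 5 kb gave 2.09, 0.894 and 1.12 for density and the 2 ratios, leaving out hth gave 1.78 counts per kb, and leaving out regions that are mostly soft-masked gave 1.96 and 0.833. For the motif shares, strong meaning at least 5 counts gave a GAGAGAG ratio of 1.89 and turned the homeodomain core from 0.913 to 1.005. Matches per kb gave 1.28 for TGACTCA and turned 3 cores to below 1, at 0.872 for CAGCTG, 0.966 for CAGGTG and 0.570 for CACACACA. What caused these shifts was not examined by a test. No paired analysis was possible because a single group was analysed here. Limits on the depth of single regions are set by counts of at most 39 per region.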
